A study of Homo sapiens with 12 samples.

Results

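Transcript levels of 10 Notch pathway genes were examined in PC-3 cells with and without stable overexpression of the serine/threonine kinase PIM1. They were the receptors NOTCH1, NOTCH2 and NOTCH3, the ligands JAG1 and JAG2, the nuclear coactivator MAML1, and the target genes HES1, HES4, HEY1 and NRARP. A gene was included when a non-control probe of the array carried one of its RefSeq transcripts, which gave 13 probes. The 10 genes were among 25746 tested, and each had at least 1 probe above the filter on dim signals, which kept 12 of the 13 probes. Only NOTCH1, NOTCH2 and NRARP had more than 1 probe, and the second NRARP probe did not pass.

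PC-3 is an androgen-independent prostate adenocarcinoma line. All samples came from pools of PC-3 cells that had been stably transfected with either an empty vector or a PIM1 expression vector, together with a fluorescent Td-Tomato plasmid, and selected with G418, so that the control cells carried the empty vector and the marker as well. Both lines were used with no further transfection named (control and PIM1 groups) or after transient transfection of NFATC1, a calcineurin-regulated transcription factor. Below, untransfected refers to cells for which no transient transfection is named, and transfected to cells given NFATC1. The transfected NFATC1 was either wild-type (WT and PIM1+WT groups) or a multi mutant in which serines and threonines at PIM1 target sites were changed to alanine (MM and PIM1+MM groups). The labels name no group that was given an empty plasmid in place of NFATC1. RNA from 12 samples, 2 per group, was hybridized to 6 two-colour Agilent arrays on 2 slides. The sources used here do not say whether the 2 samples of a group came from separate cultures, so p-values measure the spread between these samples, which may be technical.

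Notch receptors are cleaved after binding a ligand of the Jagged or Delta-like type on a neighbouring cell. The released intracellular domain enters the nucleus, joins the DNA-binding protein RBPJ and a Mastermind-like coactivator such as MAML1, and switches on targets that include the HES and HEY repressors and NRARP, a small ankyrin-repeat protein that feeds back on the receptor domain. PIM kinases are known to phosphorylate the NOTCH1 and NOTCH3 proteins, which RNA levels do not show.

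All levels are log2 intensities after quantile normalization over the 12 channels, a scale on which 1 unit is a doubling, and levels of different probes are not comparable. Cy3 was the dye of the control, WT and PIM1+WT groups, and Cy5 that of the other 3 groups (PIM1, MM, PIM1+MM), with no dye swap. Stable PIM1 could therefore be compared within a dye in the transfected cells (PIM1+WT minus WT and PIM1+MM minus MM, and the mean of both), whereas PIM1 minus control, and every comparison of WT with MM NFATC1, set one dye against the other, so that dye and group cannot be told apart there. The 3 stable PIM1 comparisons share no sample. Control and PIM1 samples were hybridized together on arrays 1 and 2, WT and MM samples on arrays 3 and 4, and PIM1+WT and PIM1+MM samples on arrays 5 and 6. In the comparisons within a dye, stable PIM1 and array therefore cannot be told apart. A difference was called when its adjusted p was under 0.05 over all genes (limma) and its size was at least 0.1.

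The share of spots well above background ran from 56.9% to 69.0% over the channels. The epithelial genes KRT8, KRT18, KRT19 and EPCAM were well above background in all 12 channels, and CDH1 in 5. Of the prostate kallikrein genes, KLK2 was above it in 12 and KLK3, which encodes prostate-specific antigen, in 0. Of 6 genes listed for other cell types, PTPRC, PECAM1 and COL1A1 were above it in 12 and COL1A2, DCN and LUM in 0. The 1 probe for PIM1 lay between 9.85 and 10.36 in all samples and was not called in any of the 3 stable PIM1 comparisons (differences 0.25, -0.23 and 0.15), while it was lower by 0.36 in PIM1+WT than in PIM1+MM samples (adjusted p = 0.0403). Its place in the transcript is not given in the sources used here, so whether it reads the transfected PIM1 was not tested. The study also measured PIM1 and NFATC1 RNA in these samples by real-time qPCR. The paper reports that this established overexpression of PIM1 and/or NFATC1, and the qPCR values are not used here. Of both NFATC1 probes, A_24_P258846 read 7.77 with WT and 11.29 with MM NFATC1 in the control line, and 7.97 and 11.95 in the PIM1 line (means, n = 2), against 6.87 in untransfected control cells. The other, A_23_P300150, read 8.28 in WT and 8.39 in MM cells, and 7.19 and 7.34 in the same groups with stable PIM1. The form of NFATC1 and the amount of its RNA therefore cannot be told apart in the comparisons of WT with MM cells.

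Sequence just upstream of HES1, HES4 and NRARP, the targets among the members that were called in the mean within a dye, is shown because RBPJ binds such regions in Notch targets. The 250 bases before the annotated start were taken from the RefSeq promoter table of GRCh38.p14, which matched 9 of the 10 genes, and are printed on the strand of the gene with every match to TGGGAA, the core of the RBPJ motif, or to its reverse complement in capitals.
HES1: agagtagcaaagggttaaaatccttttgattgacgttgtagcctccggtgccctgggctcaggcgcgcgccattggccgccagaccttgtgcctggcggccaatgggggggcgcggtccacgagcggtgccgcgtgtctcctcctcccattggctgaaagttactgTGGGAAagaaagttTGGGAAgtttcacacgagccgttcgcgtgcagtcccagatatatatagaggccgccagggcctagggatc
HES4: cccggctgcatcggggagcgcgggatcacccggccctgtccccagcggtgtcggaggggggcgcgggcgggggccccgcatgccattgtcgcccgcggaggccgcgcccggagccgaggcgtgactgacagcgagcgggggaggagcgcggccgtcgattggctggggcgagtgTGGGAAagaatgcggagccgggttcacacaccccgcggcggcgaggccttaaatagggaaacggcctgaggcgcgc
NRARP: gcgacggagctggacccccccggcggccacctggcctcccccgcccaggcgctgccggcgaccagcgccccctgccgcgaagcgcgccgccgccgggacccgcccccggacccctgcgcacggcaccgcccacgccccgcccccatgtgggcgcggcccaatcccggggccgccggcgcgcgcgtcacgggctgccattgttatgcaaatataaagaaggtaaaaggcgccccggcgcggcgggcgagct
The windows were chr3:194135898-194136147 on the plus strand for HES1, chr1:1000098-1000347 on the minus strand for HES4 and chr9:137302272-137302521 on the minus strand for NRARP. HES1 held 2 RBPJ cores, beginning 84 and 70 bases before the start, HES4 held 1 at 76 bases, and NRARP, NOTCH3, JAG1 and the other matched members held none in this window. Of 35116 promoter windows of this length, 20.8% held the core on either strand. The NFAT core GGAAA was found in 55.6% of the windows, and in HES1 and in 1 of 2 cases in HES4 its match overlapped an RBPJ core, since TGGGAAA contains both. A match describes these letters and was not tested as a binding site.

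With stable PIM1, NRARP and NOTCH3 were lower in all 3 comparisons, HES1 was lower and HES4 higher in the mean of both comparisons within a dye, and no member changed by 1 log2 unit or more after quantile normalization. NRARP was lower by 0.48 ± 0.05 and NOTCH3 by 0.43 ± 0.08 in the mean within a dye (SE, 4 samples with and 4 without stable PIM1), with adjusted p of 7.72e-05 and 0.00267 in limma. The SE counts both channels of an array as independent samples, although their correlation was estimated at 0.416 with the array as a random block. HES4 was higher by 0.38 ± 0.04 (adjusted p = 8.22e-05) and HES1 lower by 0.29 ± 0.08 (adjusted p = 0.0159). These 4 of 10 members were called in a comparison in which 34.0% of all genes were called, 16.7% as higher and 17.4% as lower, so the share of members was near that of the genes at large. With each channel centred on its median in place of quantile normalization, 0 members were called in this mean, with adjusted p of 0.053 for NRARP (-0.68), 0.0627 for NOTCH3 (-0.55), 0.289 for HES1 (-0.24) and 0.489 for HES4 (0.21), and the median over all genes moved to 0.10. The median difference was -0.06 over the members and 0.00 over all genes. In PIM1 minus control 4 members were called (25.0% of all genes), in PIM1+WT minus WT 4 (27.3%) and in PIM1+MM minus MM 4 (19.4%). Of the 10 members 5 had one sign in all 3 comparisons, against 49.5% of all genes.

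**Figure D1:**
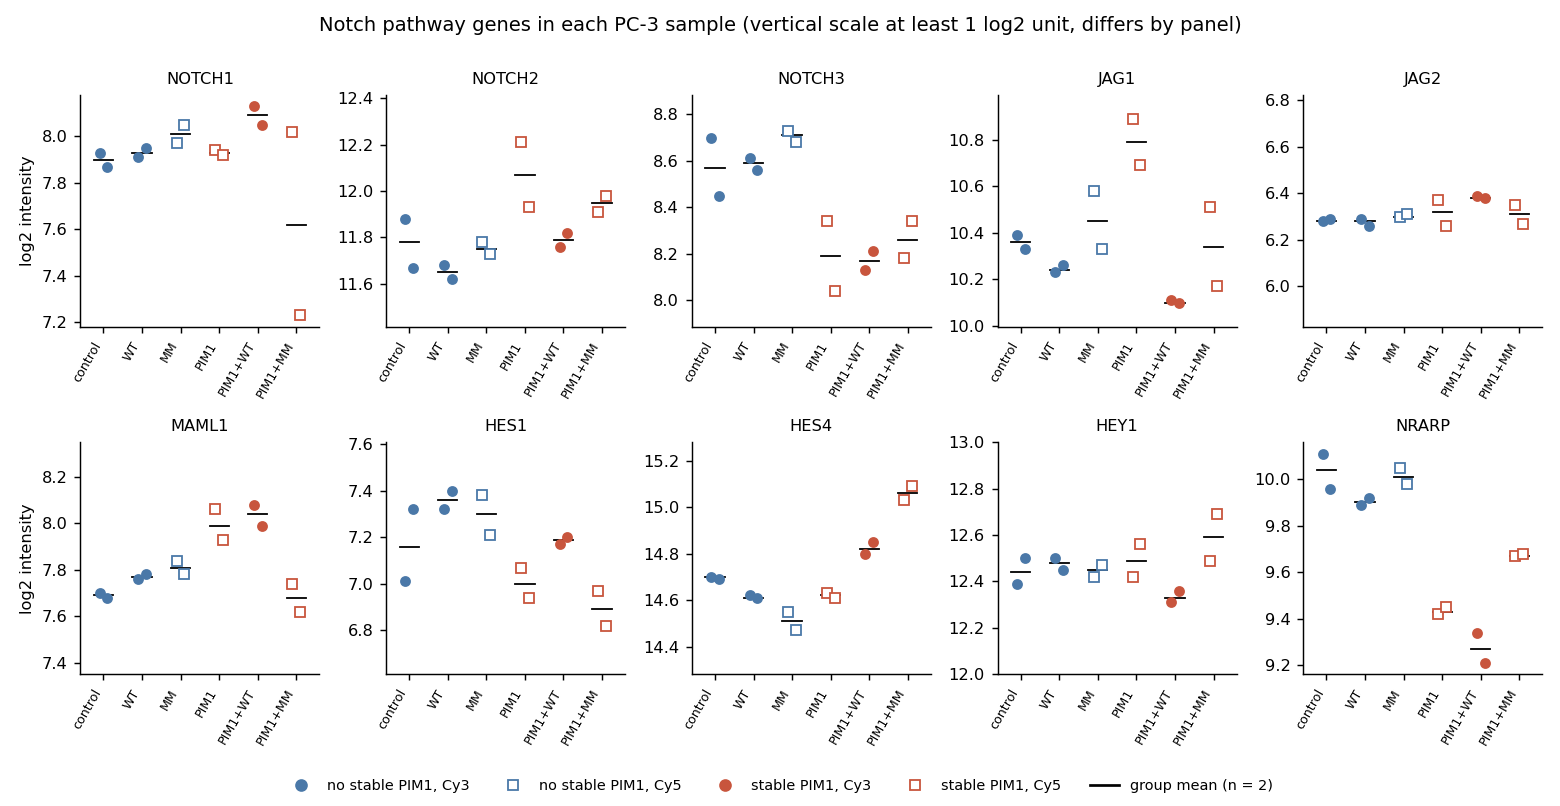
Log2 intensity of each gene (vertical axis, median over its probes) in the 12 samples, by group (horizontal axis). Blue marks cells without and red cells with stable PIM1, filled circles Cy3 and open squares Cy5, and black lines the means of 2 samples. The 6 samples with stable PIM1 lie below the 6 without it for NOTCH3 (8.04 to 8.34 against 8.45 to 8.73) and NRARP (9.21 to 9.68 against 9.89 to 10.11).

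NRARP showed the largest difference of the members in PIM1 minus control, in PIM1+WT minus WT and in the mean within a dye. Its levels were 10.11 and 9.96 in control, 9.89 and 9.92 in WT, and 10.05 and 9.98 in MM cells. With stable PIM1 they were 9.42 and 9.45 in PIM1, 9.34 and 9.21 in PIM1+WT, and 9.67 and 9.68 in PIM1+MM cells. All 6 samples with stable PIM1 thus lay below all 6 without it. The difference was -0.60 ± 0.07 in PIM1 minus control (1.52-fold lower), -0.63 ± 0.07 in PIM1+WT minus WT (1.55-fold lower) and -0.34 ± 0.07 in PIM1+MM minus MM (1.27-fold lower; SE, n = 2 per group), with adjusted p of 0.000273, 0.000198 and 0.0089 in limma. Only the last call was lost when a sample was left out (MM replicate 1, difference -0.31, adjusted p = 0.0624). The second NRARP probe was not well above background in any channel, and including it through the median with no filter brought the mean difference within a dye to -0.23 (adjusted p = 0.00165) and that in PIM1+MM minus MM to -0.15, which was no longer called (adjusted p = 0.0979). Median centring gave -1.12 in PIM1 minus control (adjusted p = 0.0247) and ended the calls in PIM1+WT minus WT (-0.88, adjusted p = 0.109) and PIM1+MM minus MM (-0.48, adjusted p = 0.878).

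NOTCH3, a receptor best known from vascular smooth muscle, had levels of 8.70 and 8.45 in control, 8.61 and 8.56 in WT, and 8.73 and 8.68 in MM cells. Its levels with stable PIM1 were 8.34 and 8.04 in PIM1, 8.13 and 8.21 in PIM1+WT, and 8.18 and 8.34 in PIM1+MM cells. Samples with and without stable PIM1 did not overlap. The differences of -0.38, -0.42 and -0.45 (each ± 0.11 SE) had adjusted p of 0.0365, 0.0231 and 0.0239, or 1.30-, 1.34- and 1.36-fold lower. Single calls rested on few samples. PIM1 minus control was -0.26 without control replicate 1 (adjusted p = 0.222) and -0.23 without PIM1 replicate 2 (adjusted p = 0.21), each of the 4 omissions ended the call in PIM1+WT minus WT (adjusted p between 0.067 and 0.126), and omitting MM replicate 1, MM replicate 2 or PIM1+MM replicate 1 ended that in PIM1+MM minus MM (adjusted p between 0.0856 and 0.114). The mean within a dye kept its call under each of the 8 omissions. Median centring gave -0.66 in PIM1 minus control (adjusted p = 0.0421) and ended the calls in PIM1+WT minus WT (-0.58, adjusted p = 0.199) and PIM1+MM minus MM (-0.53, adjusted p = 0.649).

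A gap between all samples with and all samples without stable PIM1 was seen in 15.2% of genes and in 2 of the 10 members. Over the 8 transfected samples alone the separation held for NOTCH3, NRARP, HES1 and HES4, which is 4 of 10 members against 28.9% of all genes.

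**Figure D2:**
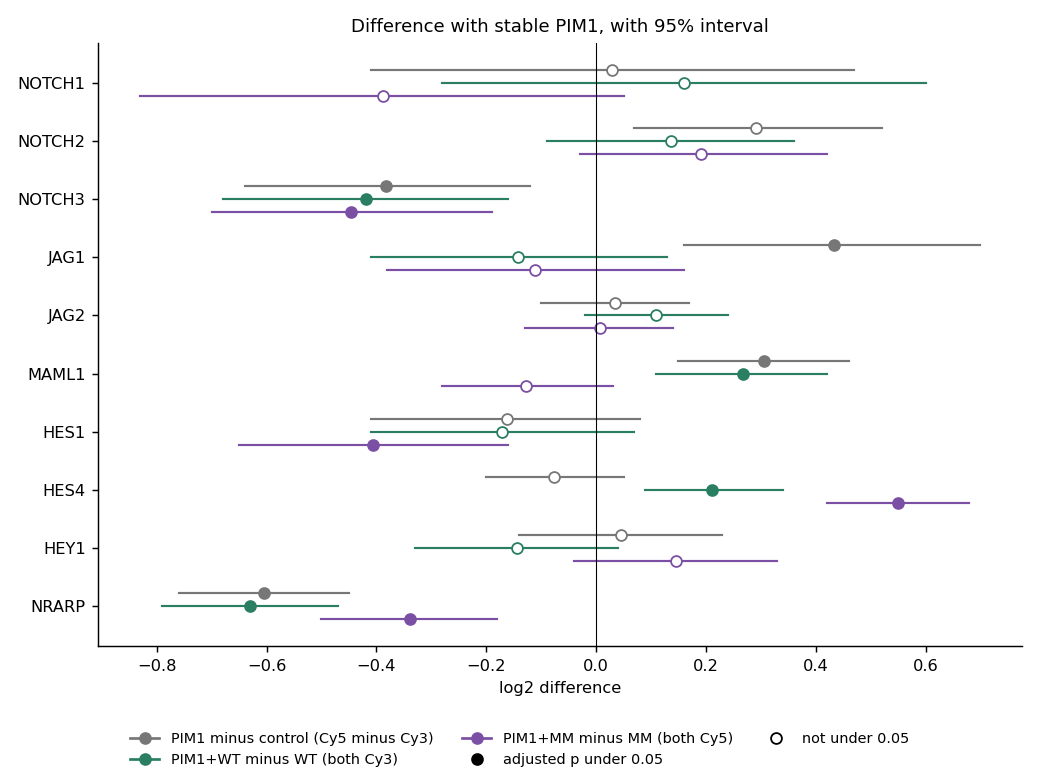
Log2 difference (horizontal axis) with 95% interval for each member in PIM1 minus control (grey, across dyes), PIM1+WT minus WT (green, within Cy3) and PIM1+MM minus MM (purple, within Cy5). Filled points have an adjusted p under 0.05, and NRARP and NOTCH3 are the members filled below 0 in all 3. HES4 is filled above 0 in both comparisons within a dye (0.21, which median centring turned to -0.08, and 0.55), and JAG1 is filled above 0 only across dyes (0.43, which median centring turned to -0.18).

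HES1 and HES4 encode basic helix-loop-helix repressors of the same family and moved in opposite directions with stable PIM1 in the transfected cells. HES1 read 7.01 and 7.32 in control and 7.07 and 6.94 in PIM1 cells, and these groups overlapped. In transfected cells it read 7.32 and 7.40 in WT, 7.17 and 7.20 in PIM1+WT, 7.38 and 7.21 in MM, and 6.97 and 6.82 in PIM1+MM samples. Both PIM1+MM samples were the lowest of the 8. The difference was called in PIM1+MM minus MM (-0.41 ± 0.11, adjusted p = 0.0275) and not in PIM1+WT minus WT (-0.17 ± 0.11, 95% interval -0.41 to 0.07) or PIM1 minus control (-0.16 ± 0.11, -0.41 to 0.08). Its probe was dim, with raw intensities from 76.5 to 132 in Cy3 and from 150 to 315 in Cy5, where the 90th percentile of the negative controls was 36 to 46 and 122 to 131.9. The mean difference within a dye was -0.22 after normexp background correction (adjusted p = 0.133) and -0.57 with the processed signal (adjusted p = 0.029), and the call was also lost with the array as a random block (adjusted p = 0.0787) and on omitting WT replicate 2, MM replicate 1, PIM1+WT replicate 1 or PIM1+MM replicate 2 (adjusted p between 0.0508 and 0.0603). In PIM1+MM minus MM alone, omitting MM replicate 1 (-0.32) or PIM1+MM replicate 2 (-0.33) ended the call.

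HES4 levels, none from a saturated spot, were 14.70 and 14.69 in control and 14.63 and 14.61 in PIM1 cells, a difference of -0.08 ± 0.06 that was not called (95% interval -0.20 to 0.05), although median centring gave -0.85 (adjusted p = 0.0476). In transfected cells they were 14.62 and 14.61 in WT against 14.80 and 14.85 in PIM1+WT, and 14.55 and 14.47 in MM against 15.03 and 15.09 in PIM1+MM. PIM1+MM cells had the highest and MM cells the lowest mean of the 6 groups. HES4 was higher by 0.21 ± 0.06 in PIM1+WT minus WT (adjusted p = 0.0194), which median centring turned to -0.08 and which no omission of a sample left called (adjusted p between 0.0603 and 0.126), and by 0.55 ± 0.06 in PIM1+MM minus MM (1.46-fold, adjusted p = 0.000211), where median centring gave 0.51 and ended the call (adjusted p = 0.971).

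HEY1, a related repressor of the Hairy family with a YRPW motif, lay between 12.31 and 12.69 in all samples and was called in no stable PIM1 comparison after quantile normalization. In PIM1 minus control it differed by 0.05 ± 0.08, which median centring turned to -0.69 (adjusted p = 0.0488). Its mean difference within a dye was 0.00 ± 0.06 (95% interval -0.13 to 0.13), made of -0.14 in PIM1+WT minus WT and 0.14 in PIM1+MM minus MM.

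MAML1, the coactivator, was measured by a probe printed in 10 spots per array, whose spots had a median SD of 0.227 log2 units within a channel. It read 7.70 and 7.68 in control, 7.76 and 7.78 in WT, 7.84 and 7.78 in MM, 8.06 and 7.93 in PIM1, and 8.08 and 7.99 in PIM1+WT cells. In PIM1+MM cells it read 7.74 and 7.62. MAML1 was higher with stable PIM1 in untransfected cells, across dyes (0.31 ± 0.07, adjusted p = 0.00983), and with WT NFATC1, within Cy3 (0.27 ± 0.07, adjusted p = 0.0173). The difference with MM NFATC1, within Cy5, was -0.13 ± 0.07 (95% interval -0.28 to 0.03). Without control replicate 2 or PIM1 replicate 1 the first call was lost (adjusted p = 0.0525 and 0.0523), and without WT replicate 1, WT replicate 2 or PIM1+WT replicate 1 the second (adjusted p between 0.0779 and 0.129). Median centring ended both calls, with 0.14 (adjusted p = 0.5) and 0.23 (adjusted p = 0.413).

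Of the ligands, JAG1 differed by 0.43 ± 0.12 in PIM1 minus control (adjusted p = 0.0263), which median centring turned to -0.18. JAG1 read 10.39 and 10.33 (control) against 10.89 and 10.69 (PIM1). It read 10.23 and 10.26 (WT) against 10.11 and 10.10 (PIM1+WT), and 10.58 and 10.33 (MM) against 10.51 and 10.17 (PIM1+MM). Within a dye the differences were -0.14 and -0.11 and were not called. On all 6 arrays the Cy5 sample read higher than the Cy3 sample, by 0.07 to 0.50, whether or not the Cy5 sample carried PIM1, and the part of the dye in the call was not tested. Omitting control replicate 1, control replicate 2 or PIM1 replicate 1 ended the call (adjusted p between 0.0759 and 0.13). JAG2, the other Jagged ligand, stayed between 6.26 and 6.39, and in 0 of 12 channels was it well above background, so no fold is given for it.

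For NOTCH1 and NOTCH2 the median over probes hid probes that moved differently, so each probe was also fitted on its own, with p-values adjusted over 31484 probes. In these fits 26.3% of the probes were called in PIM1 minus control, 27.7% in PIM1+WT minus WT, 19.3% in PIM1+MM minus MM and 34.1% in the mean within a dye.

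NOTCH2 probes A_23_P200792 and A_33_P3258824 are annotated to different RefSeq transcripts of the gene. The latter read 11.35 and 11.25 in control, 11.22 and 11.19 in WT, and 11.25 and 11.18 in MM cells. Its levels with stable PIM1 were 11.94 and 11.66 in PIM1, 11.68 and 11.74 in PIM1+WT, and 11.62 and 11.66 in PIM1+MM cells. All 6 samples with stable PIM1 were higher than all 6 without it, a gap seen in 15.2% of genes, with no share over probes given here. The differences were 0.50, 0.50 and 0.42 (each ± 0.09 SE, adjusted p = 0.00266, 0.00251 and 0.00981). A_23_P200792 lay between 11.84 and 12.48, with differences of 0.08, -0.23 and -0.04 (each ± 0.12 SE) that were not called. Median centring turned the gene-level value in PIM1 minus control from 0.29 to -0.42. For A_33_P3258824 alone no median-centred value is given, so how far its calls depend on the normalization was not tested. Its raw intensity in replicate 1 was 5543 in PIM1 and 2590 in control cells, where the channel medians were 249.25 and 135.5. In replicate 2 it was 2068 and 2414, with channel medians of 176 and 136. The change at A_33_P3258824 exceeded that at A_23_P200792 by 0.54 over all samples and by 0.60 over the transfected samples, given as a description with no test, since the pair was set apart after its values were seen. NOTCH2 shares near-identical sequence with the NOTCH2NL genes, and probe sequences were not used here, so which transcripts each probe reads is uncertain.

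**Figure D3:**
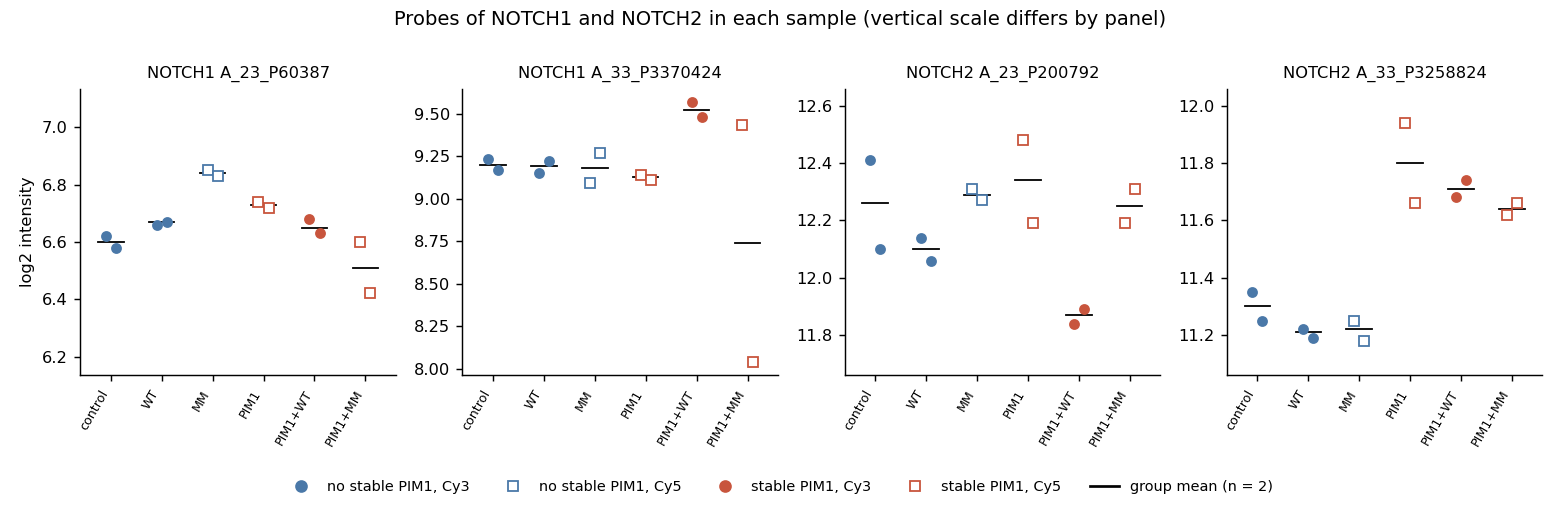
Log2 intensity (vertical axis) of each probe of NOTCH1 and NOTCH2 in the 12 samples by group (horizontal axis), with colours and symbols for stable PIM1 and dye and black lines for means of 2 samples. NOTCH2 probe A_33_P3258824 lies at 11.62 or above in every sample with stable PIM1 and at 11.35 or below in every other sample, and NOTCH1 probe A_33_P3370424 falls to 8.04 in PIM1+MM replicate 2 alone.

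NOTCH1 probe A_33_P3370424, printed in 1 spot in row 13 of 532, read 9.09 to 9.27 in control, WT, MM and PIM1 cells, 9.57 and 9.48 in PIM1+WT, and 9.43 and 8.04 in PIM1+MM cells. The low value came from the Cy5 channel of PIM1+MM replicate 2, in which 1602 probes of the first 33 rows had a median 0.16 below replicate 1, against 0.02 above it for the other probes. With those rows left out of that channel, the probe was higher by 0.33 ± 0.08 in PIM1+WT minus WT (adjusted p = 0.0115), by 0.25 ± 0.09 in PIM1+MM minus MM (1 PIM1+MM sample, adjusted p = 0.106) and by 0.29 ± 0.06 in their mean (adjusted p = 0.00582). With them kept, the mean was -0.06 ± 0.24. The difference in PIM1+WT minus WT, which does not use that channel, was again 0.33 but with an SE of 0.33 (adjusted p = 0.549 in limma). Its call thus rested on the smaller shared spread after the low value was left out. The other NOTCH1 probe, A_23_P60387, printed in 10 spots outside those rows, was lower by 0.17 ± 0.05 in the mean within a dye (adjusted p = 0.0239) and by 0.33 ± 0.07 in PIM1+MM minus MM (adjusted p = 0.0102). It was dim, from 6.42 to 6.85, and most of its spots were well above background in 9 of 12 channels. In PIM1+MM replicate 2, which is in both comparisons, 0 of its spots were (raw intensity 136.5, against 129.9 for the 90th percentile of the negative controls), so the size of both differences is uncertain. The probes differed in direction in the mean within a dye only with the first rows left out, and the gene-level value of -0.11 ± 0.14 was not called.

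The form of NFATC1 was compared without and with stable PIM1. In WT minus MM, 0 of 10 members were called by limma and 0 had an unadjusted p under 0.05 (0.804% of all genes called), with differences of at most 0.21. In PIM1+WT minus PIM1+MM 3 members were called (16.0% of all genes). MAML1 was higher by 0.36 ± 0.07 (adjusted p = 0.00834), NRARP lower by 0.40 ± 0.07 (adjusted p = 0.00493, or 0.0636 with no filter on dim probes) and HES4 lower by 0.23 ± 0.06 (adjusted p = 0.0206). Of these, HES4 was -0.11 after loess normalization within arrays (adjusted p = 0.305), and MAML1 lost its call without PIM1+WT replicate 1 (adjusted p = 0.0788) or PIM1+MM replicate 2 (adjusted p = 0.0542). HES4 lost it without PIM1+WT replicate 1, PIM1+WT replicate 2 or PIM1+MM replicate 2 (adjusted p between 0.0722 and 0.143). Median centring ended the 3 calls (adjusted p of 0.367, 0.835 and 0.928 for MAML1, NRARP and HES4). NOTCH1 (0.46, adjusted p = 0.151), whose low PIM1+MM value is described above, HES1 (0.29, adjusted p = 0.103) and HEY1 (-0.26, adjusted p = 0.064) did not pass.

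Whether the difference between WT and MM cells depended on stable PIM1 was tested as an interaction, in which a dye effect shared by both arms cancels. By limma 0 of 10 members were called (2.18% of all genes), while 4 had an unadjusted p under 0.05. The largest of these were MAML1 (0.40 ± 0.10, adjusted p = 0.0733) and HES4 (-0.34 ± 0.08, adjusted p = 0.063), each with one sign on both slides. MAML1 was called with the slide as a block (adjusted p = 0.0482) and HES4 with the array as a random block (adjusted p = 0.0109). The array block called 2476 of all genes, against 561 without it. Of 12 alternatives, 4 called MAML1 and 2 called HES4. Median centring called 0 genes, with MAML1 at 0.37 and HES4 at -0.59.

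**Figure D4:**
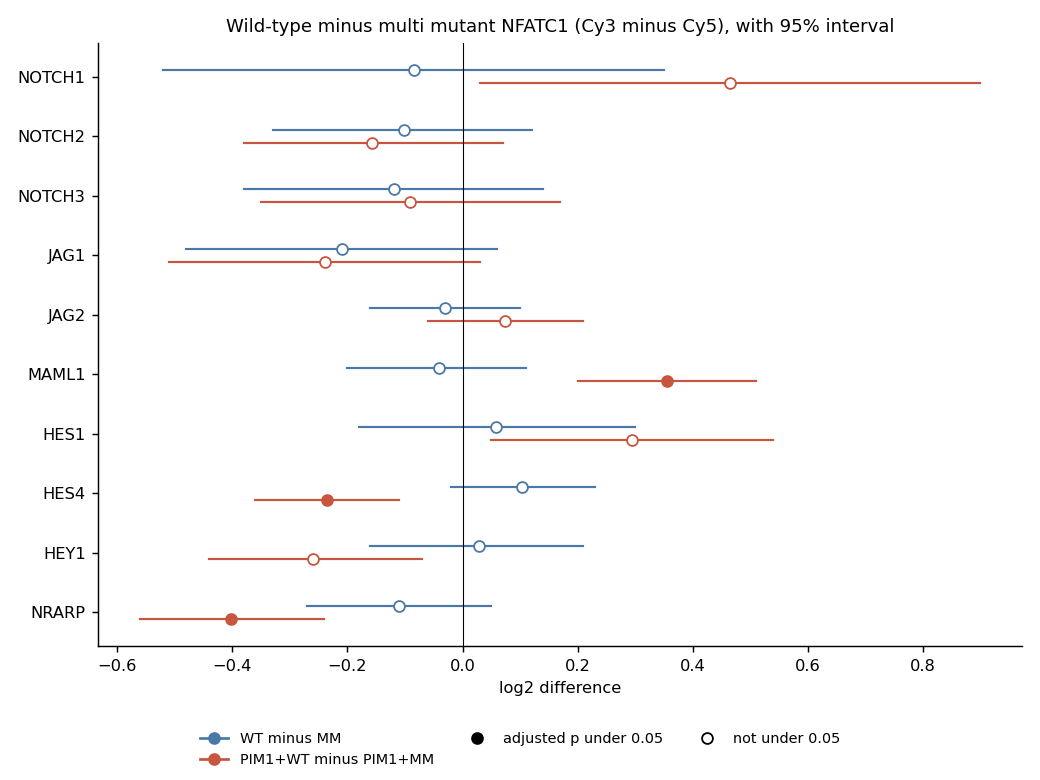
Log2 difference (horizontal axis) with 95% interval between wild-type and multi mutant NFATC1 for each member, without stable PIM1 (blue) and with it (red). Filled points have an adjusted p under 0.05. No blue point is filled, and MAML1 is filled above 0 and NRARP and HES4 below 0 in red.

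Stable PIM1 without NFATC1 transfection was also set against the mean within a dye, a comparison added after the values were seen, in which 9.17% of all genes were called. JAG1 (0.56 ± 0.15, adjusted p = 0.0462) and HES4 (-0.46 ± 0.07, adjusted p = 0.00523) were called among the members, and transfection and dye cannot be told apart in it.

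Beyond the members, 62 other genes of the pathway were listed and 59 were tested. In the mean stable PIM1 difference within a dye 16 were higher and 14 lower, against 16.7% and 17.4% of all genes, with a median of 0.01. Among other ligands and receptors 2 of 6 were higher (DLL3 and NOTCH4) and 0 lower. NOTCH4 was dim, at 6.67 to 7.19, and well above background in 10 of 12 channels, and DLL1 and DLL4 were so in 0. The counts by role include such genes, also where a gene was well above background in no channel. Of 9 genes for receptor cleavage 3 were higher and 1 lower, and of 5 for receptor glycosylation 1 was higher and 2 lower. Of 13 ubiquitin and trafficking genes 5 were higher and 4 lower, of 16 nuclear complex genes 3 were higher and 3 lower, and of 10 other targets 2 were higher and 4 lower. With median centring 6 of the 59 were called in place of 30, so not all of the genes named below for this mean kept their call.

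DTX2, a Deltex ubiquitin ligase, and HES2, another HES family repressor, had the largest increases. DTX2 read 8.38 and 8.40 in control, 8.43 and 8.37 in WT, and 8.29 and 8.36 in MM cells, against 9.39 and 9.14 in PIM1, 9.78 and 9.75 in PIM1+WT, and 9.11 and 8.94 in PIM1+MM cells, a mean difference within a dye of 1.03 ± 0.06 (adjusted p = 4.67e-06). HES2 was between 8.86 and 9.09 without and between 9.79 and 10.00 with stable PIM1, with a mean difference of 0.83 ± 0.05 (adjusted p = 4.67e-06). DTX3, another Deltex ligase, rose by 0.48 ± 0.07, TLE1, a Groucho-type corepressor, by 0.43 ± 0.05 and KAT2B, a histone acetyltransferase, by 0.42 ± 0.06 (adjusted p = 0.000773, 0.000296 and 0.000814).

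ID3 and ID1, inhibitors of basic helix-loop-helix factors that also answer to BMP signalling, had the largest decreases. ID3 was between 9.40 and 9.76 without and between 8.29 and 8.91 with stable PIM1, with a mean difference within a dye of -1.02 ± 0.06 (adjusted p = 2.25e-06). ID1 fell by 0.60 ± 0.07 (adjusted p = 0.000174). RBPJ, the DNA-binding partner of the receptor domain, read 12.56 and 12.39 in control, 12.35 and 12.28 in WT, 12.30 and 12.12 in MM, 12.12 and 11.85 in PIM1, 11.56 and 11.71 in PIM1+WT, and 11.75 and 11.96 in PIM1+MM cells. Its levels with and without stable PIM1 met at 12.12, and the mean difference was -0.52 ± 0.08 (adjusted p = 0.00112). POGLUT1, which adds glucose to the receptors, fell by 0.49 ± 0.07 (adjusted p = 0.000466).

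**Figure D5:**
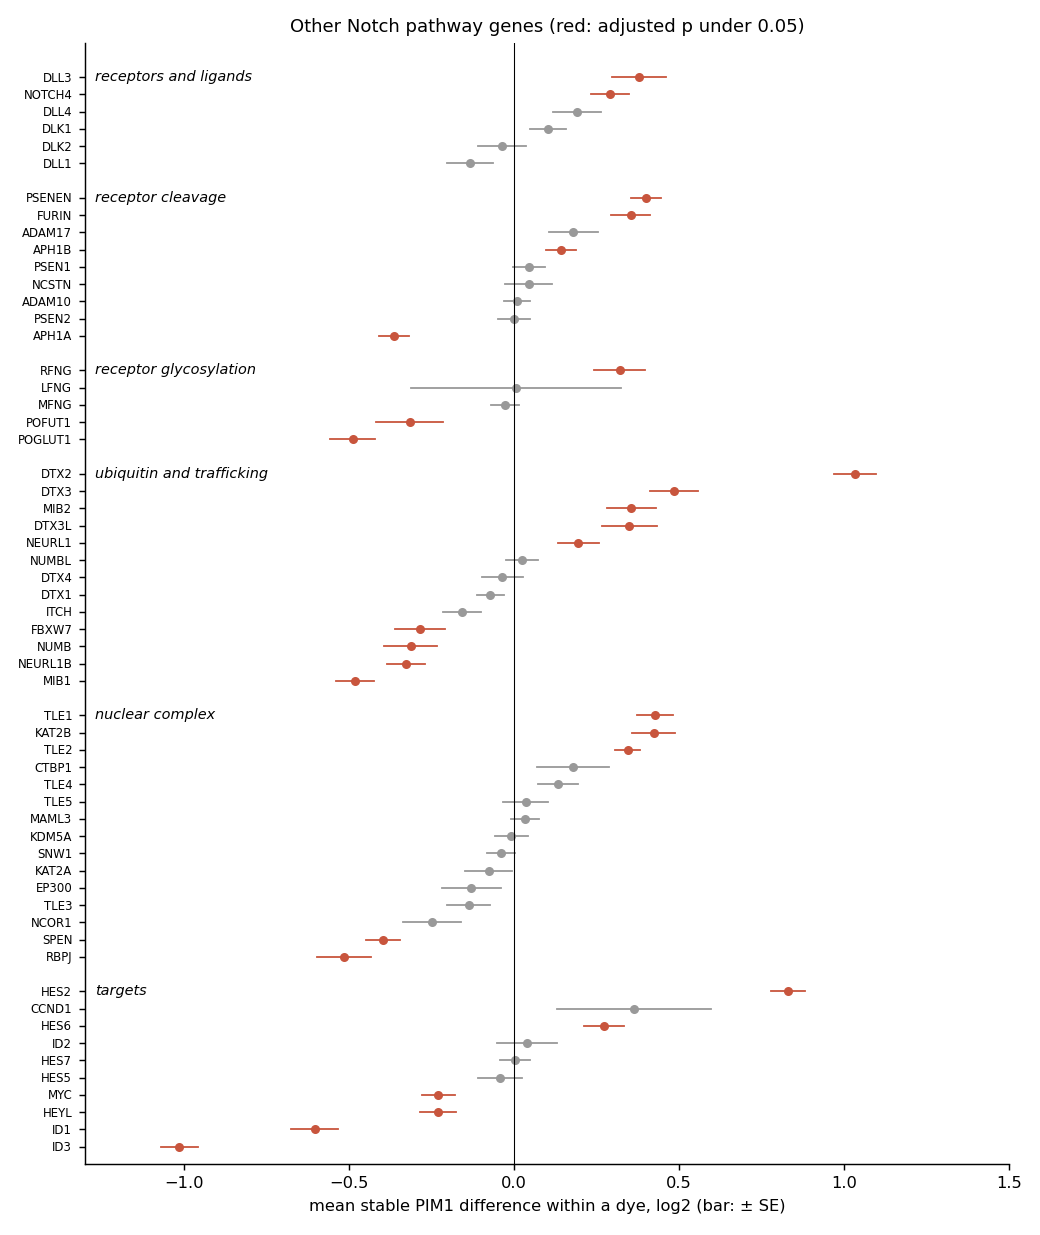
Mean stable PIM1 difference within a dye (horizontal axis, log2, bars ± SE) for 58 of the 59 other pathway genes tested, grouped by role. Red marks an adjusted p under 0.05, with 16 genes to the right of 0 and 13 to the left, from ID3 at -1.02 to DTX2 at 1.03.

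In PIM1+WT minus PIM1+MM 7 of the 59 genes were higher and 6 lower, against 8.54% and 7.50% of all genes. RFNG, a fringe glycosyltransferase, was higher by 0.84 ± 0.11 (adjusted p = 0.00102), MIB2, a ligase for Notch ligands, by 0.78 ± 0.11 (adjusted p = 0.00141) and DTX3 by 0.75 ± 0.10 (adjusted p = 0.00146). KAT2B was lower by 0.33 ± 0.09 and NUMBL, a NUMB-like adaptor, by 0.31 ± 0.07 (adjusted p = 0.0385 and 0.0146). When single samples were left out, KAT2B lost its call in 4 of 4 cases (-0.40 to -0.25) and NUMBL in 3 of 4 (-0.35 to -0.27). RFNG, MIB2 and DTX3 kept theirs. Median centring left 19 calls over all genes in this comparison. In the interaction 2 of 59 were called, DTX2 and RFNG (2.18% of all genes), and leaving out 7 of 8 samples one at a time ended either call.

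Over the 12 samples the genes whose mean-centred profile lay nearest to that of HES1 were PCDHGB2, a protocadherin, BMP4, a secreted growth factor, and RSPH10B, a radial spoke protein, with root mean square distances of 0.0815, 0.0941 and 0.0941 log2 units. The median distance over all genes was 0.233, and the profile of HES1 itself had a root mean square of 0.181. RSPH10B has a near-identical copy, so its name is uncertain. Probe sequences were not used here, so which transcripts the PCDHGB2 probe reads is uncertain as well.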

How the data were processed

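Total RNA of 12 PC-3 samples (6 groups of 2) was labelled with Cy3 or Cy5 and hybridized to 6 arrays on 2 slides, and the authors extracted spot values with Feature Extraction 11.0.1.1 (array design build hg19). Deposited were the raw median signal intensity per spot and channel, a processed signal intensity, background and outlier flags, and log2 values that lay within 0.0844 of the quantile-normalized log2 median signal. The authors' fold-change cutoff of 0.1 was kept and read as a log2 difference, since its scale is not stated.

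Here outlier spots were left out, spots of a probe averaged, and 31484 of 34127 probes kept that exceeded the 90th percentile of the negative controls in at least 2 channels. Values were log2 transformed and quantile normalized over the 12 channels without background subtraction. The median was taken per symbol, after matching RefSeq transcripts to the annotation of GRCh38.p14 (26377 probes), which gave 25746 genes. All genes and samples entered a single limma fit (version 3.58.1, R 4.3.3) with a mean for each group, with Benjamini-Hochberg adjustment within each of 8 comparisons. The fit was tested on simulated data with independent channels, which cannot show the effect of correlation between the channels of an array. No depth applies to arrays, and the number of samples limits the precision.

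The members, the pathway list and the tests were chosen with earlier results of these data known. Named were all members, the up to 5 called pathway genes with the largest difference in each direction in the mean within a dye, the up to 3 in PIM1+WT minus PIM1+MM, and the 3 genes nearest to HES1. Some genes that the rule or the marker list named are not reported here, though counts include them. NOTCH4, DLL3, the dim genes DLL1 and DLL4, and the comparison of untransfected with transfected cells were added after values were seen. Alternatives were normexp background correction, loess with Aquantile, median centring, processed signal, deposited values, stricter and no filter, flagged spots kept, the brightest probe per symbol, slide and array as blocks, the compared groups alone, first rows left out, an array left out, each sample left out, and each probe fitted on its own (added later).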

Additional observations from a re-analysis of the deposited data

Results flagged for a closer look

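The effect of stable PIM1 differed between untransfected cells (across dyes) and the mean of NFATC1-transfected cells (within a dye) for JAG1, by 0.56 (adjusted p = 0.0462, 0.60 on slide 1 and 0.52 on slide 2), and for HES4, by -0.46 (adjusted p = 0.00523, -0.40 and -0.51), and the parts of dye and transfection were not tested. The JAG1 call was lost on leaving out any of control replicate 1, control replicate 2, PIM1 replicate 1, WT replicate 1, WT replicate 2, MM replicate 1, PIM1+WT replicate 1 or PIM1+WT replicate 2 (differences 0.46 to 0.59), whereas HES4 kept its call under each of the 12 omissions.

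The interaction of NFATC1 form with stable PIM1 was called for RFNG, at 0.76 (adjusted p = 0.0412, 0.75 on slide 1 and 0.76 on slide 2). It was also called for DTX2, at 0.67 (adjusted p = 0.0361, 0.53 and 0.80). These were 2 of 59 other pathway genes, against 2.18% of all genes, and median centring called 0 genes. Leaving out any sample other than PIM1+MM replicate 1 ended either call, with adjusted p of up to 0.177 for RFNG and 0.154 for DTX2.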

How the results depend on the processing

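The count of members called was 4 in each stable PIM1 comparison (PIM1 minus control, with WT NFATC1, with MM NFATC1, and the mean within a dye), 3 in PIM1+WT minus PIM1+MM, 0 in the interaction and 2 in the comparison of untransfected with transfected cells. Median centring gave 0 in all of these except PIM1 minus control, and turned JAG1 in PIM1 minus control to -0.179 (adjusted p = 0.675) and HES4 in PIM1+WT minus WT to -0.08 (adjusted p = 0.855). It moved the median of all genes to 0.13, 0.138, 0.053, 0.104 and -0.114 in the comparisons in the order of the opening sentence, up to PIM1+WT minus PIM1+MM. Among differences that were called, these 2 reversed and 116 values of single genes lost their call over all alternatives. Among those that were not called, signs also turned, as for NOTCH2 in PIM1 minus control (0.29 to -0.42) and JAG1 in WT minus MM (-0.21 to 0.21), and HEY1 turned from 0.05 to -0.69 in PIM1 minus control, where median centring called it, HES4 and JAG2.

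Without the array that held the replicate 1 samples of the control and PIM1 groups there were 2 in PIM1 minus control, 5 in PIM1+WT minus PIM1+MM and 1 in the last comparison. Fitting the compared groups alone gave 1 in PIM1 minus control and 1 in PIM1+WT minus PIM1+MM. The last comparison also gave 1 with normexp, loess, the processed signal or the first rows left out. The interaction gave 1 with loess, 2 with the filter in all 12 channels and 2 with the array as a random block.

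With the replicate number as a block the interaction gave 1 (MAML1), and PIM1+WT minus PIM1+MM added HEY1 (adjusted p = 0.0339) and PIM1 minus control NOTCH2 (adjusted p = 0.047). The number is also the slide. It was not taken to pair samples, since deviations correlated from 0.05 to 0.83 over 15 pairs of groups and above 0.1 in 7, at 0.35 or more on a shared array and at most 0.17 otherwise.

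Leaving out single samples gave 2 to 4 in PIM1 minus control, 1 to 2 with WT NFATC1, 1 to 4 with MM NFATC1, 3 to 5 in the mean within a dye, 1 to 5 in PIM1+WT minus PIM1+MM, 0 to 1 in the interaction and 1 to 3 in the last comparison. The cause was not tested in any of these.

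Over all genes, median centring called 495 with WT NFATC1, 110 with MM NFATC1 and 1169 in the mean within a dye (7038, 4989 and 8764 otherwise), and 0 in WT minus MM, 19 in PIM1+WT minus PIM1+MM, 0 in the interaction and 6 in the last comparison (207, 4129, 561 and 2361 otherwise). WT minus MM ranged from 84 with the processed signal to 1228 with the array as a random block, which gave 6876 in PIM1+WT minus PIM1+MM and 2476 in the interaction. That block gave 6951 in the mean within a dye, against 8764 without it.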
